A study of Mus musculus with 6 samples.

Results

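The levels of 10 genes of the heterogeneous nuclear ribonucleoprotein (hnRNP) family were compared in lipopolysaccharide (LPS) treated macrophages with and without myeloid AUF1. They are Hnrnpm, Hnrnpu, Hnrnpk, Hnrnpl, Hnrnpc, Hnrnpf, Hnrnph1, Hnrnph2, Hnrnpul1 and Hnrnpul2, and make up 10 of the 55254 gene symbols in the count table. They were chosen by name, with earlier results of these data known. The count table held 124 transcripts of these genes, of which 73 had a read and 56 passed the filter on low values. Transcripts of a gene that share a 3′ region share its reads, and the 56 transcripts held 32 distinct sets of counts.

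hnRNPs coat nascent and mature RNA and act in splicing, nuclear retention, export, decay and translation. Members differ in the RNA they prefer: U-rich for hnRNP C, G-rich for hnRNP F and H, C-rich for hnRNP K and CA-rich for hnRNP L. AUF1, the product of Hnrnpd, is a family member known for binding AU-rich elements in the 3′ ends of inflammatory mRNAs, and hnRNPs act in macrophages on RNAs induced by LPS.

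The 6 libraries came from bone marrow derived macrophages (BMDMs) of C57BL/6J mice, 3 from control mice (hnRNPDfl/fl) and 3 from M-Δx3,4 mice (LysCre+hnRNPDfl/fl). Both groups carried the floxed alleles, so the groups differ by the Cre transgene, which is driven by the myeloid lysozyme M locus. All cultures were differentiated for 10 days in medium containing L929 supernatant and received LPS at 100 ng/ml for 4 hrs, and there was no untreated group. The study's methods describe the marrow donors as mice several weeks old, and the labels do not say that cultures came from separate mice, so the p-values measure the spread between these samples, which may be technical. Fewer cells and less RNA per cell cannot be told apart in such bulk samples.

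The libraries held 5852374 to 9008878 counts. Control replicate 3 stood apart from the others. Its Pearson r with control replicate 1 over 4667 genes was 0.764, whereas control replicate 1 correlated best with M-Δx3,4 replicate 3 (0.971), so the results below are given with libraries left out where that mattered. For the targeted gene, Hnrnpd, the most counted transcript (ENSMUST00000172361) had 329.1, 182.2 and 102.3 normalized counts in control and 135.1, 121.8 and 157.2 in M-Δx3,4, and the groups overlapped. Its log2 fold change was -0.57 ± 0.41 (SE, n = 3 per group; edgeR unadjusted p = 0.183, adjusted p = 0.984), and it became -0.04 when control replicate 1 was left out. Omitting control replicate 3 gave -0.87, the 1 of 6 such fits with an unadjusted p under 0.05. The shorter 3′ region of ENSMUST00000072750, which lies inside the longer one and shares its reads with other Hnrnpd isoforms, had 174.2, 102.1 and 68.2 normalized counts in control and 51.8, 12.4 and 15.7 in M-Δx3,4, and its log2 fold change was -2.11 ± 0.54 (SE, n = 3 per group; edgeR unadjusted p = 0.00144, adjusted p = 0.984). These reads lie at the 3′ end, outside the deleted exons, and do not measure the deletion directly. All 8 macrophage markers were tested and 1 of them, Lyz2, passed an unadjusted p of 0.05 (log2 fold change -0.91 ± 0.30), and the summed list ranged from 6321.5 to 6892.2 normalized counts in control and from 5304 to 6929.2 in M-Δx3,4. Lyz2 is the gene of lysozyme M, whose locus drives Cre in the M-Δx3,4 group, and the part of the Cre allele in this difference was not tested. The neutrophil list summed to 236.3 to 594.4 and 386.3 to 542.3, the B cell list to 28.5 to 30 and 22.4 to 39.1, the T cell list to 5.7 to 36.4 and 10.5 to 23.8, and the dendritic list to 1.1 to 5.0 and 0.0 to 4.9. Ly6g never exceeded 1.1 normalized counts, Pax5 never exceeded 1.1, and Cd3e, Cd3g, Trac, Elane and Cd209a had no read. The part of other cell types in the results was not tested.

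Because the reads were primed at the poly(A) tail, the 3′ ends of the transcripts are shown first, from the GENCODE annotation of GRCm38 (mm10). Of the 10 members, 7 held the canonical poly(A) signal AATAAA within the last 50 bases of their most counted complete coding transcript, against 65.8% of 9880 genes, searched on the transcript strand. Those 30-base windows are printed with the signal in capitals.

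Hnrnpm, chr17:33646239-33646268, minus strand: tatgactttgatAATAAAtaccagttcctg
Hnrnpf, chr6:117925589-117925618, plus strand: tttttttcttaaAATAAAgactttttcaca
Hnrnpl, chr7:28822231-28822260, plus strand: aattgtttggaaAATAAAactatttgctgg
Hnrnpc, chr14:52073386-52073415, minus strand: gggaaatttgagAATAAAgactgtggttct
Hnrnph1, chr11:50386493-50386522, plus strand: tgaaccttgtcaAATAAAtcttccttttaa
Hnrnpul1, chr7:25721177-25721206, minus strand: ttgttttctttcAATAAAtgacatggcacc
Hnrnpul2, chr19:8834109-8834138, plus strand: ttccagttttagAATAAAtaaccatttgga

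The letters were not in this window in Hnrnpu, Hnrnpk and Hnrnph2. For Hnrnph2 the transcript searched was ENSMUST00000113202, with a counted region of 750 bases. It shares its counts with ENSMUST00000113203, whose region has 1052 bases and stands for the gene in the comparisons below. The end of that longer form was not searched. All 7 windows lie in the 3′ UTR. The pentamer ATTTA, the core of AU-rich elements, was in the last 300 bases of the 3′ UTR of 6 of the 10 members, against 43.5% of 8292 genes whose 3′ UTR is at least that long. The nonamer TTATTTATT, which contains the pentamer, was in no member's 3′ UTR, against 2.05% of those genes in the last 300 bases. Across the whole 3′ UTR the pentamer occurred 11 times in Hnrnpu, whose 3′ UTR of 5011 bases is the longest among the members, and 0 times in Hnrnpm, whose 3′ UTR has 497 bases. The most AT-rich pentamer windows of the members whose libraries separated upward or that held most in the last 300 bases are printed with the pentamer in capitals.

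Hnrnpu, chr1:178324511-178324540, minus strand: aaatgttttaacATTTAattttagtcaatg
Hnrnpf, chr6:117925403-117925432, plus strand: agttatattttcATTTAaaatctttaggtt
Hnrnph1, chr11:50386290-50386319, plus strand: tgttaattctaaATTTAtttgataacctgt

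A match is a string of letters in the annotated 3′ UTR and not a measured site, and the RNAs counted need not all reach it. Of the 451 overlapping 50-mers in the last 500 bases of each member, 0 were found in an annotated transcript of another gene, so reads of that length in these bases have 1 annotated source gene. Most reads of Hnrnpc and Hnrnpk lay outside these bases. In Hnrnpc, 88.0% to 94.1% lay in chr14:52074550-52075079, and in Hnrnpk, 68.8% to 82.0% lay in chr13:58391984-58392411. Whether those stretches match another gene was not tested. In Hnrnpu, chr1:178324583-178324831, within its last 500 bases, held 0 reads in every library. Where the reads of Hnrnpu lay in its counted region of 5260 bases was not resolved, so the check may not cover them.

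The comparison asked whether the levels of these RNAs differed between M-Δx3,4 and control BMDMs. By its most counted transcript, 1 of 10 members, Hnrnpm, passed an unadjusted p of 0.05, and it was higher in M-Δx3,4. Over all 11875 genes tested the same rule called 3.98%, and 1.45% in the upward direction, so a count of 1 in 10 is close to the background. None of the members passed after adjustment, nor did any of the 32475 transcripts in edgeR (0.0%), for which the lowest adjusted p was 0.824. Of these transcripts 1340 had an unadjusted p under 0.05, and DESeq2 called 4 after adjustment. Hnrnpm, Hnrnpu and Hnrnpf had every M-Δx3,4 library above every control library, 3 of 10 members against 4.18% of all genes. Fold changes were above 0 in 8 of 10 members, with a median log2 fold change of 0.332 against -0.00651 over all genes, of which 49.5% were above 0. The members were chosen with earlier results of these data known. They also do not vary independently: Hnrnpu and Hnrnpf followed the mean of the other members at r = 0.96 and 0.90. These shares are therefore a description, and a change of the family as a set was not tested.

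**Figure D1:**
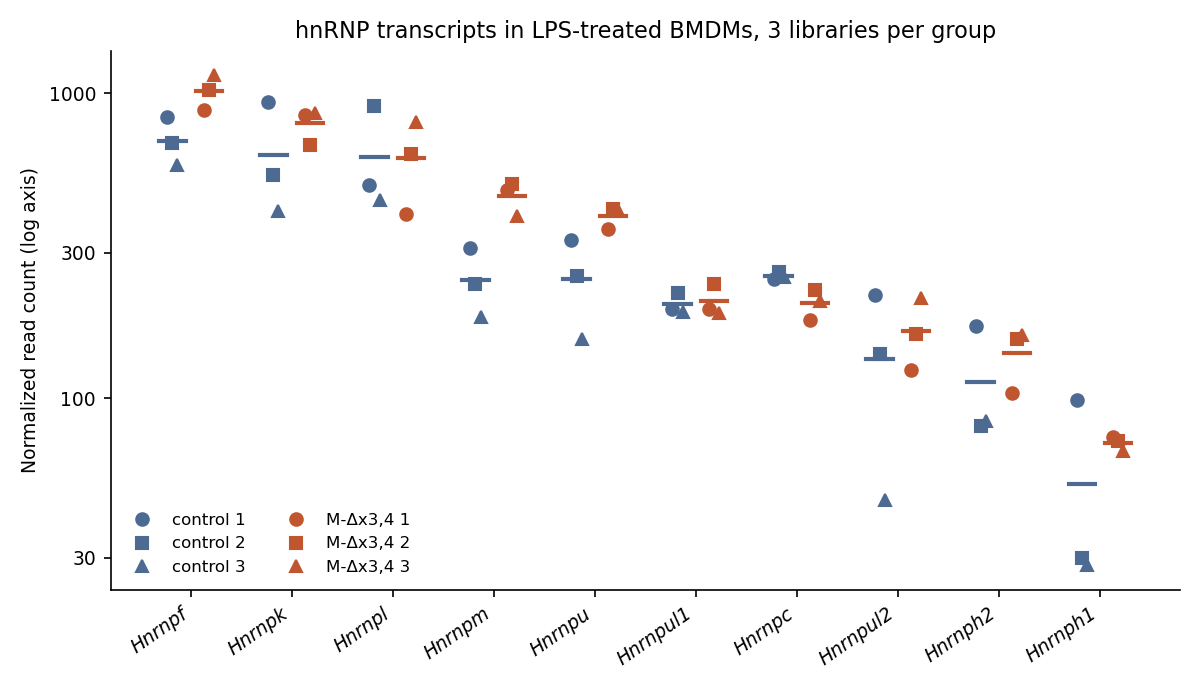
Normalized read counts on a log axis of the highest-count transcript of each member in the 3 control (blue) and 3 M-Δx3,4 (orange) libraries, with lines at the group means and marker shapes for replicate numbers. The groups do not overlap in Hnrnpm, Hnrnpu and Hnrnpf (M-Δx3,4 above) or in Hnrnpc (M-Δx3,4 below), and control replicate 1 is the highest control library in 7 of the 10 members.

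hnRNP M, a splicing regulator with RNA recognition motifs, has been linked to the restraint of inflammatory gene expression in macrophages. Hnrnpm (ENSMUSG00000059208, chr17:33646233-33686860) gave 310.9, 237.3 and 184.2 normalized counts across control replicates 1 to 3 and 481.1, 505.2 and 395.4 across M-Δx3,4 replicates 1 to 3. Every M-Δx3,4 library was above the highest control, which was replicate 1. The means were 244.1 ± 63.6 and 460.6 ± 57.7 (SD, n = 3 each), and the 1.89-fold difference (log2 0.92 ± 0.32 SE) had an edgeR unadjusted p of 0.0127 and an adjusted p of 0.984. A two-sided exact permutation test gave p = 0.1, the smallest that 3 against 3 allows. The fold change stayed between 0.76 and 1.13 with any 1 library left out, and all 6 of these fits gave an unadjusted p under 0.05.

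All 7 tested transcripts of Hnrnpm passed the unadjusted threshold, with log2 fold changes of 0.91 to 1.01, in 5 distinct sets of counts that share most of their reads. They are overlapping views of 1 signal and not separate results. Over all transcripts tested, 4.13% passed.

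hnRNP U, also called scaffold attachment factor A, is a large chromatin-associated RNA-binding protein. Hnrnpu (ENSMUSG00000039630, chr1:178321108-178337797) had 331.4, 252.3 and 156.9 normalized counts in control and 358.4, 418.6 and 415.6 in M-Δx3,4 libraries. The groups did not overlap, but the lowest M-Δx3,4 library was close to control replicate 1. The log2 fold change was 0.69 ± 0.34 (SE, n = 3 per group), with an edgeR unadjusted p of 0.0617, an adjusted p of 0.984 and an exact permutation p of 0.1. With DESeq2 its unadjusted p was 0.0486, with limma-voom it was 0.0408, and without control replicate 1 it was 0.0098 in edgeR, with a log2 fold change of 0.96. It did not pass without any 1 of the other 5 libraries (edgeR unadjusted p of 0.0855 to 0.183), and the log2 fold change was 0.46 without control replicate 3. hnRNP U-like 1 and 2, related proteins that have been studied in the DNA damage response, had a different spread. Hnrnpul1 (ENSMUSG00000040725, chr7:25721165-25754757) had 195.9, 222.2 and 192.1 normalized counts in control and 196.5, 237.9 and 190.2 in M-Δx3,4, a log2 fold change of 0.03 ± 0.32 (edgeR unadjusted p = 0.919, adjusted p = 0.998). Its 6 libraries lay within 190.2 to 237.9. Hnrnpul2 (ENSMUSG00000071659, chr19:8820010-8834143) ran from 46.6 in control replicate 3 to 217.5 in control replicate 1 and from 123.6 to 212.7 in M-Δx3,4. Its log2 fold change was 0.30 ± 0.46 (edgeR unadjusted p = 0.519, adjusted p = 0.984), -0.09 without control replicate 3 and 0.83 without control replicate 1.

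hnRNP F, H1 and H2 are close relatives that bind G tracts through their RNA recognition motifs and steer splicing and polyadenylation. Hnrnpf (ENSMUSG00000042079, chr6:117900324-117925622) had 833.6, 685.7 and 580.9 normalized counts in control and 882.7, 1024.7 and 1145.6 in M-Δx3,4 libraries. Its groups did not overlap, and control replicate 1 came within 1 SD of the lowest M-Δx3,4 library. The log2 fold change was 0.54 ± 0.30 (SE, n = 3 per group), the edgeR unadjusted p was 0.0937 and the exact permutation p was 0.1. Hnrnph1 (ENSMUSG00000007850, chr11:50376990-50386528) had 99.1, 30 and 28.4 in control and 74.8, 72.3 and 67.4 in M-Δx3,4. The 2 lower control libraries held 30 and 25 raw counts, and control replicate 1 was above all M-Δx3,4 libraries. The log2 fold change of 0.45 ± 0.48 (edgeR unadjusted p = 0.362, adjusted p = 0.984) became 1.29 without control replicate 1 (unadjusted p = 0.00487, adjusted p = 0.182) and 0.16 without control replicate 2. Hnrnph2 (ENSMUSG00000045427, chrX:134601179-134607060) had 173.1, 81.1 and 84.1 in control and 104.5, 157.0 and 161.0 in M-Δx3,4. Control replicate 1 was again the highest library, and the log2 fold change was 0.32 ± 0.39 (edgeR unadjusted p = 0.423, adjusted p = 0.984).

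hnRNP K binds C-rich RNA and DNA through KH domains. Hnrnpk (ENSMUSG00000021546, chr13:58391142-58403343) had 938.4, 538.6 and 410.4 normalized counts in control and 850.1, 678.4 and 863.3 in M-Δx3,4 libraries. The control libraries covered the whole range of the M-Δx3,4 libraries, and the log2 fold change was 0.34 ± 0.35 (edgeR unadjusted p = 0.338, adjusted p = 0.984). hnRNP L regulates splicing through CA repeats. Hnrnpl (ENSMUSG00000015165, chr7:28808541-28822266) had 499.9, 905.0 and 446.7 in control and 402.5, 634.6 and 804.9 in M-Δx3,4. Both groups held a library near or above 800, and the log2 fold change of -0.01 ± 0.36 (edgeR unadjusted p = 0.984, adjusted p = 0.999) ranged from -0.25 to 0.37 with 1 library left out. hnRNP C forms a core particle on nascent RNA. Hnrnpc (ENSMUSG00000060373, chr14:52073377-52104028) was the member with the narrowest control spread, at 246.0, 259.3 and 250.1, and had 180.2, 226.4 and 208.9 in M-Δx3,4. Each M-Δx3,4 library lay below each control library, with a log2 fold change of -0.30 ± 0.31 (edgeR unadjusted p = 0.358, adjusted p = 0.984, exact permutation p = 0.1). No share of all genes that separated downward is given here to set beside this.

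**Figure D2:**
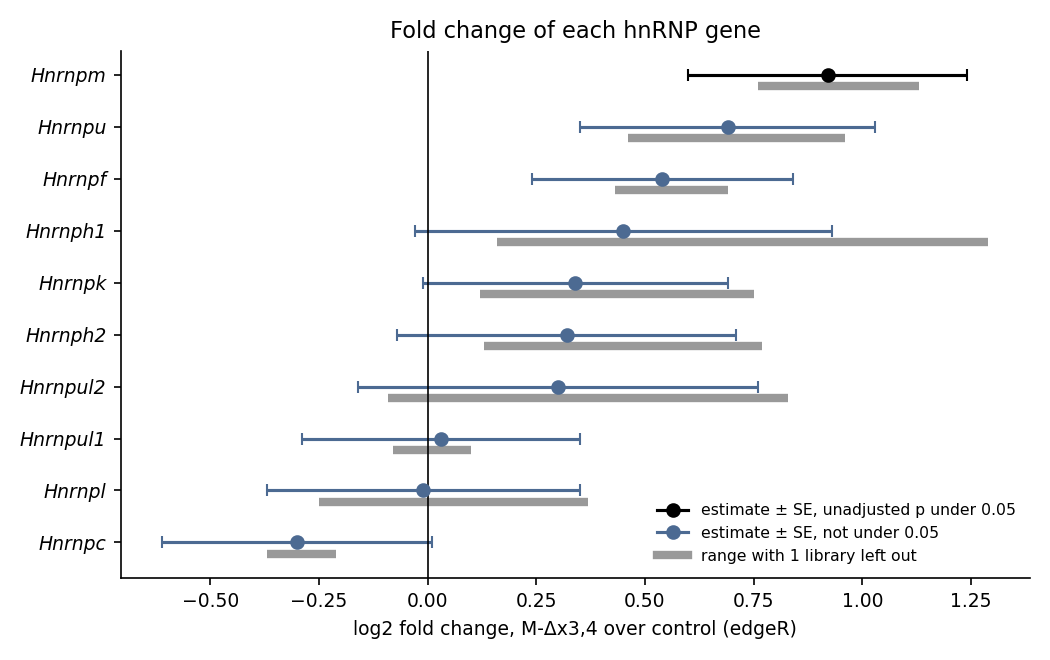
log2 fold change of each member (M-Δx3,4 over control) from edgeR with its standard error, and in grey the range of the estimate when any 1 of the 6 libraries was left out. Only Hnrnpm (black) passed an unadjusted p of 0.05, and the grey ranges of Hnrnpul2, Hnrnpul1 and Hnrnpl cross 0.

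Leaving out control replicate 1 altered more members than any other omission. In that fit 6 of 10 members passed an unadjusted p of 0.05, all higher in M-Δx3,4: Hnrnpm, Hnrnpu, Hnrnpk, Hnrnpf, Hnrnph1 and Hnrnph2. The share of all genes passing rose with it, to 16.0% of 11369, and none of the 6 members passed after adjustment (adjusted p of 0.168 for Hnrnpm). Without control replicate 2, control replicate 3 or any 1 M-Δx3,4 library, Hnrnpm was the 1 member that passed.

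**Figure D3:**
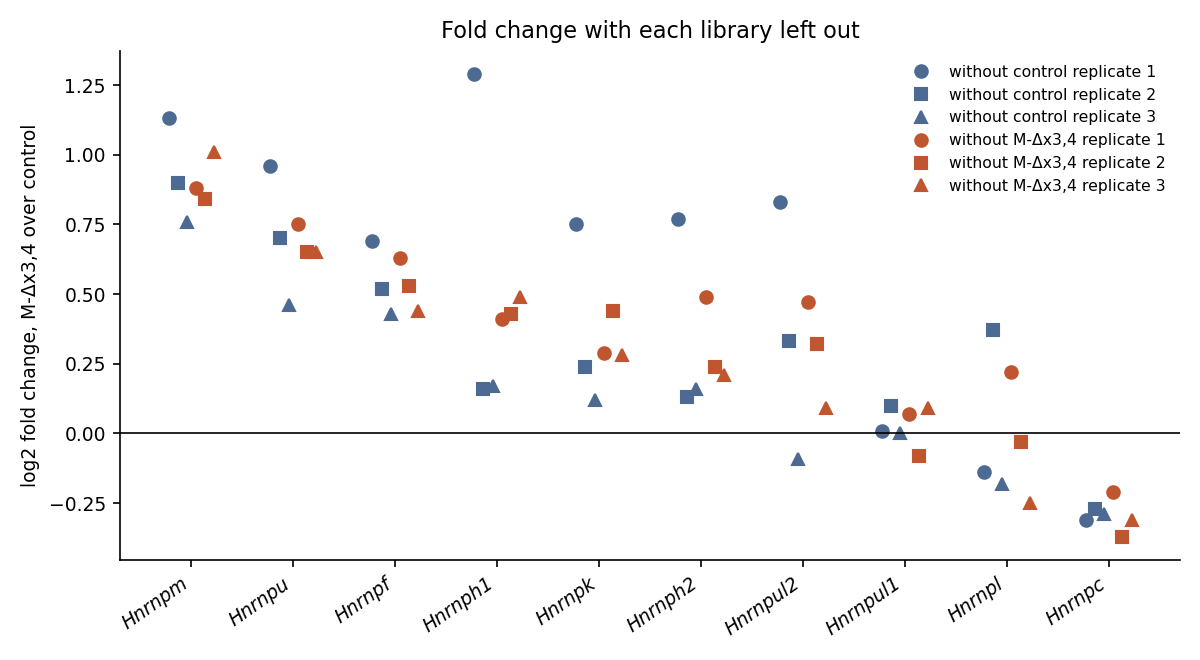
log2 fold change of each member (M-Δx3,4 over control) in 6 edgeR fits, each without 1 library. Without control replicate 1 (blue circles) the values of Hnrnpk, Hnrnph1, Hnrnph2 and Hnrnpul2 lie between 0.75 and 1.29, and without control replicate 3 (blue triangles) those of the same genes lie between -0.09 and 0.17.

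Centred on its own mean, the average log2 level of the 10 members was 0.23, -0.19 and -0.64 in control replicates 1 to 3 and 0.03, 0.27 and 0.30 in M-Δx3,4 replicates 1 to 3. Control replicate 3 was thus the lowest library and was the lowest in 6 of the 10 genes. The correlations that follow are a description over 6 libraries, which differed in depth and may have differed in handling. Hnrnpu had the highest correlation with the mean of the other 9 members (Pearson r = 0.96), followed by Hnrnpf and Hnrnpul2 (0.90 each). Hnrnpl and Hnrnpul1 (0.15 each) and Hnrnpc (-0.45) followed that mean least. Among 3156 genes outside the hnRNP lists with at least 100 mean normalized counts, the profiles most like the average were those of Gdi2 (r = 0.995) and of Gm8430, Ndufb5, Zfand6 and Ccnl1 (0.994 each). Gdi2, a regulator of Rab GTPase recycling, had 260.8, 172.2 and 114.8 normalized counts in control and 216.6, 265.4 and 253.8 in M-Δx3,4 libraries. Gm8430 is annotated as a processed pseudogene, and reads of its parent gene may be counted there.

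Per kilobase of counted 3′ region, the 10 members covered a wide range. Reads were primed at the poly(A) tail, so counts need not scale with region length, and the order per kb depends on the region counted. For Hnrnpl, a region of 609 bases held 905.0 normalized counts in control replicate 2, as did the 1493 bases used here. By this measure Hnrnpf was the highest, at 671 to 1320 normalized counts per kb, and was above every other member in every library. Before division, Hnrnpl was higher than Hnrnpf in control replicate 2 (905.0 against 685.7) and Hnrnpk in control replicate 1 (938.4 against 833.6). Hnrnpm (259 to 711), Hnrnpk (265 to 605) and Hnrnpl (270 to 606) came next and overlapped one another. Below them, Hnrnpul1 (143 to 179) was above Hnrnpc (92.3 to 133) in every library, and the range of Hnrnph2 (77.1 to 165) overlapped both. Hnrnph1, Hnrnpu and Hnrnpul2 were lowest, between 16.3 and 99 per kb, and overlapped as well. The counted region of Hnrnpu spans 5.26 kb, against 0.711 to 2.86 kb for the others. Before division by length, the mean of Hnrnpu over the 6 libraries was 322.2 normalized counts. That was above Hnrnpc (228.5), Hnrnpul1 (205.8), Hnrnpul2 (150.5), Hnrnph2 (126.8) and Hnrnph1 (62.0). It was below Hnrnpm (352.3), Hnrnpl (615.6), Hnrnpk (713.2) and Hnrnpf (858.9).

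Few reads of any member fell outside the region of its most counted transcript. Hnrnph2 had no counted region elsewhere. The share was 0 in all 6 libraries for Hnrnpc and Hnrnpul2, and a count of 0 allows up to 1.60% and 7.32% in their shallowest libraries (3 counts of the total, counting error only). It was at most 0.677% for Hnrnpm, Hnrnpu, Hnrnpk and Hnrnpf. It reached 3.20% in Hnrnpl, 3.85% in Hnrnph1 and 2.87% in Hnrnpul1, all in control replicate 3, where these were 13, 1 and 5 reads. Exact permutation tests of the share between groups gave p of 0.2 to 1.0, and differences of a few reads were not detectable at this depth.

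Within the counted 3′ regions, the regions of shorter transcripts show where the reads lay. These regions were chosen after their counts were seen. In Hnrnpk the region chr13:58391984-58392411 held 68.8%, 79.4% and 82.0% of the reads of the whole region in control and 70.8%, 70.4% and 69.4% in M-Δx3,4 libraries. The M-Δx3,4 libraries were alike and lay within the control range (exact permutation p = 0.4). An AATAAA lies 827 bases before the annotated end of the longest form, just beside that region on the downstream side. It is shown, with the signal in capitals, because the region chr13:58391873-58392121, which contains it, held 63.1% to 77.3% of the reads.

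Hnrnpk, chr13:58391951-58391980, minus strand: tatgatttttaaAATAAAtttagtgaatct

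A more distal stretch of Hnrnpk, chr13:58391701-58391949, held 13.3%, 27.7% and 23.8% in control and 23.7%, 29.7% and 12.7% in M-Δx3,4 libraries, again overlapping. In Hnrnpm, the end-proximal region chr17:33645984-33646495 held 75.1%, 84.4% and 93.2% of reads in control and 95.2%, 89.6% and 78.8% in M-Δx3,4 libraries (exact permutation p = 0.6). Without the remaining upstream reads the log2 fold change of Hnrnpm was 1.01 ± 0.32. In Hnrnpl, the region chr7:28822245-28822493, at and beyond the annotated end, held 56.5%, 57.7% and 61.1% in control and 56.4%, 52.3% and 52.2% in M-Δx3,4 libraries, a separation by 0.1 percentage points at its narrowest (exact permutation p = 0.1). In Hnrnpc, 88.0% to 94.1% of reads lay in chr14:52074550-52075079, the part of the 3′ UTR next to the coding sequence, in all 6 libraries. That part contains an AATAAA, and the annotated end of the long form lies 1445 bases further on.

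Hnrnpc, chr14:52074804-52074833, minus strand: ctttgacttaacAATAAAaagttgtatggt

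**Figure D4:**
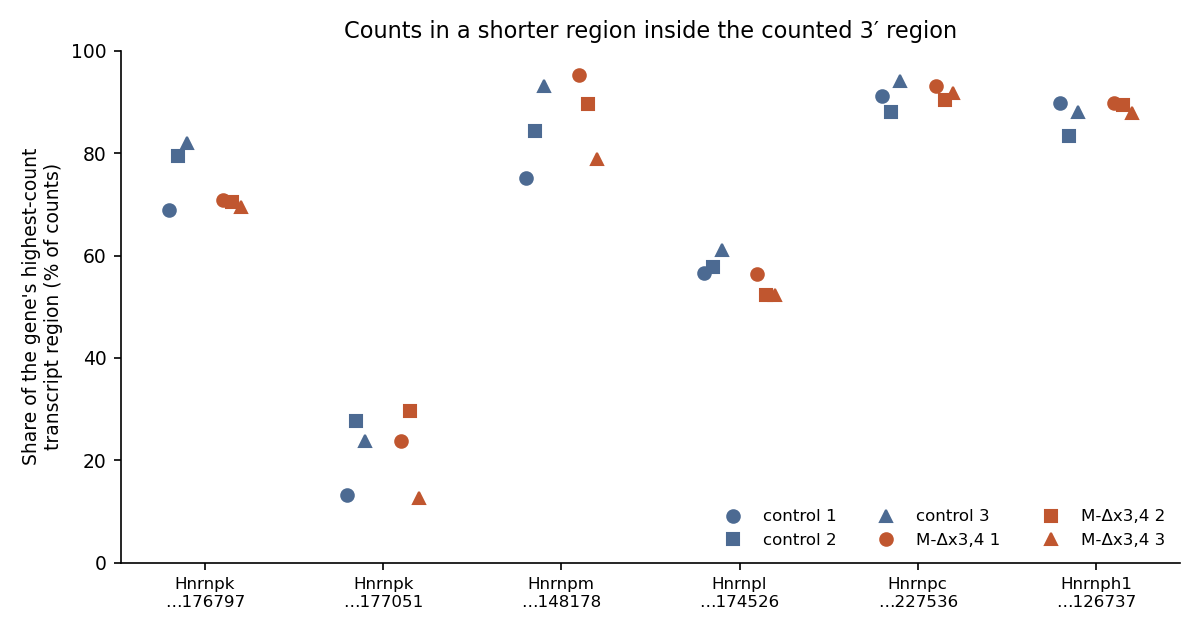
Share of the reads of a member's counted 3′ region (percent, one point per library) that lay in the region of a shorter transcript inside it, named by gene and the last digits of the transcript identifier. The Hnrnpl libraries of the groups come nearest at 56.4% and 56.5%, the other regions overlap, and in Hnrnpc at least 88.0% of reads lay in the shorter region in every library.

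Of the other hnRNP genes, all 17 in the list were tested. By their most counted transcript, 6 had a fold change above 0 and 11 below, with a median log2 fold change of -0.0613. Rbmx, an RNA-binding protein encoded on the X chromosome, was the 1 gene of the 17 with an unadjusted p under 0.05. It had 15.9, 21.0 and 43.2 normalized counts in control and 1.0, 9.5 and 12 in M-Δx3,4. Its log2 fold change was -1.79 ± 0.66 (edgeR unadjusted p = 0.0165, adjusted p = 0.984), and it did not pass without control replicate 3 or without M-Δx3,4 replicate 1.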

How the data were processed

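Control and M-Δx3,4 BMDMs (3 libraries each) were profiled by QuantSeq 3′ sequencing on an Ion Torrent instrument. The authors aligned reads with TopHat2 2.1.1 and Bowtie2 (2.3.2 in the submitters' processing notes) to mm10 and deposited raw counts over 3′ UTR regions of Ensembl transcripts. Reads were primed at the poly(A) tail, so counts reflect 3′ ends and not whole transcripts. A second deposited file holds the authors' own comparison and was not used.

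Counts were summed per transcript, the transcript with the highest mean count standing for its gene. Size factors were medians of ratios. Testing was limited to transcripts that exceeded 4.89, the overall median normalized count, in 1 or more libraries, and used edgeR 4.0.16 quasi-likelihood (R 4.3.3), tested on simulated data first. A gene was called at an unadjusted p of 0.05. Adjusted p is Benjamini-Hochberg over all 32475 transcripts. Exact permutation tests were two-sided. DESeq2 1.42.0 and limma 3.58.1 were alternatives. Named genes were the members, the targeted gene, hnRNP genes under that p, and the 5 most similar profiles. Sequences came from GENCODE vM21. Members and lists were chosen with earlier results of these data known. Depth was 5852374 to 9008878 counts per library.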

Additional observations from a re-analysis of the deposited data

How the results depend on the processing

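Hnrnpm passed an unadjusted p of 0.05 in every alternative run, with a log2 fold change of 0.76 to 1.13. Of the 10 members, 2 passed with DESeq2 and 2 with limma-voom (Hnrnpm and Hnrnpu), and 1 to 6 with a library left out. The distinct member transcript sets passing numbered 5, with 6 in DESeq2, 6 in limma-voom and 1 with 1 transcript per gene, where fewer were tested, and ranged from 4 to 15 with a library left out. Of the 17 other hnRNP genes, 2 passed with limma-voom and 2 without a low-count filter (Rbmx and Hnrnpa2b1), and 0 to 4 with a library left out. Over the whole series 1340 transcripts passed, 2148 without a filter, 744 with filterByExpr, 465 with 1 transcript per gene, 217 at an unadjusted p of 0.01, and 771 to 4572 with a library left out. After adjustment 4 transcripts passed with DESeq2, 118 without a filter and 55 without control replicate 1, none of them a member's. The causes of these shifts were not tested beyond the number of transcripts tested.

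The log2 fold change of Hnrnpl turned from -0.0075 to 0.00019 with TMM, 0.0031 with library totals alone, 0.0091 with limma-voom, 0.0028 with the replicate block, and ran from -0.25 to 0.37 with a library left out. With a library left out, that of Hnrnpul2 ran from -0.09 (without control replicate 3) to 0.83 and that of Hnrnpul1 from -0.08 (without M-Δx3,4 replicate 2) to 0.1. The cause was not tested.

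The labels do not say whether replicate numbers pair the samples. Deviations from the group means correlated at -0.213, 0.538 and -0.31 for numbers 1 to 3. Not every library correlated best with its own number, but 3 libraries per group cannot decide the pairing. With the replicate as a block 908 transcripts passed instead of 1340, and Hnrnpm had a log2 fold change of 0.94. At 25 to 90 raw counts in Hnrnph1, only large differences could be detected.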
